A study of Homo sapiens with 6 samples.

Results

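Small nucleolar RNAs are short, stable RNAs that guide the chemical modification of other RNAs. H/ACA box RNAs (SNORA) guide pseudouridylation and C/D box RNAs (SNORD) guide ribose methylation, mainly of ribosomal RNA, while Cajal body RNAs (SCARNA) act mainly on spliceosomal RNAs. In human cells most are cut out of the introns of host genes, many of which encode ribosomal proteins or other parts of the translation machinery, and the mature RNAs carry no poly(A) tail. This account covers the small nucleolar RNA rows of an RNA-seq table from HCT-116 cells, an established human colorectal carcinoma line, after transfection of a GapmeR against the long noncoding RNA CASC9.

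Members were the rows whose whole gene name begins with SNORA, SNORD or SCARNA and a digit and whose mean FPKM (fragments per kilobase of transcript, scaled to the mapped fragments of the library) was at least 0.1 over the 6 libraries. The rule found 60 of the 27918 rows, with 20 SNORA, 33 SNORD and 7 SCARNA rows, out of 90 rows with such a name. A further 13 rows that join a host gene and a small nucleolar RNA in 1 name, such as RPL32;SNORA7A, RPS3;SNORD15A and DKC1;SNORA36A, were left out. Just outside the limit were SNORD3B-2, SNORA15B-2 and SNORA19, with means of 0.0900, 0.0940 and 0.0952 FPKM. Just inside it were SCARNA2, SNORD62A and SNORA28, with means of 0.10, 0.104 and 0.105 FPKM.

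Cells received the negative control GapmeR (GapNC, 3 libraries) or the CASC9 GapmeR (GapC9, 3 libraries) at 10 nM. A GapmeR is an antisense oligonucleotide that recruits RNase H to its target RNA. The study's methods give 48 h to harvest and its results give 24 h. The labels do not say whether the 3 libraries of a group came from separate cultures, so the p-values measure the spread between these libraries, which may be technical. RNA was selected by poly(A) for libraries with inserts of about 300 ± 50 bp, and 53 of the 60 members are annotated as shorter than 250 bases.

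GapNC and GapC9 below mean the libraries labelled so. With 1 fragment taken as the most frequent step among low FPKM values, each library held about 22.7 to 24.3 M (mega) fragments. The CASC9 row stood at 0, 0.0108 and 0 FPKM in GapNC 1 to 3, and in GapC9 1 to 3 at 0.0528, 0.107 and 0 FPKM. Since 1 fragment on a transcript of 1 kb is worth 0.0412 to 0.0441 FPKM, these values stand for very few fragments, and a difference in the targeted RNA was not detectable at this depth. Directions below rest on the labels. Of 7 epithelial markers 6 passed the 0.1 FPKM filter, led by KRT8, KRT18 and KRT19. Among them CDX2 had a mean of only 2.22 FPKM, and VIL1, at 0.0163 FPKM, did not pass. Of 10 markers of other cells only COL1A1 and COL3A1 passed, with means of 1.21 and 3.47 FPKM. GapNC 1 stood apart in base composition: across 10117 rows its deviation from the mean of the libraries followed GC content with a Spearman rho of 0.616, against −0.376 to 0.0287 in the others. The part of this in the results was not tested beyond the settings given with them.

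Shown first are SNORA65, SNORA66 and SNORA12, which rest on the most fragments among the rows called higher, and SNORA75, called higher on fewer. Capitals mark the ACA box near the 3′ end of these H/ACA RNAs. Sequences are those of the annotated transcripts in GENCODE release 29 (GRCh38), written 5′ to 3′ on the strand of the RNA with T for U.
SNORA65 (chr9:127448501-127448630, minus strand, within RPL12): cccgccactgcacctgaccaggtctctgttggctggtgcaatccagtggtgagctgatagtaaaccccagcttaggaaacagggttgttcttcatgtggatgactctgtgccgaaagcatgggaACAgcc
SNORA66 (chr1:92840719-92840851, plus strand, within RPL5): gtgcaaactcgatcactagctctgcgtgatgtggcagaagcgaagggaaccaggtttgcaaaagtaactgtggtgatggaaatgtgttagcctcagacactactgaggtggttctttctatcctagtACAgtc
SNORA12 (chr10:100237156-100237302, minus strand, within CWF19L1): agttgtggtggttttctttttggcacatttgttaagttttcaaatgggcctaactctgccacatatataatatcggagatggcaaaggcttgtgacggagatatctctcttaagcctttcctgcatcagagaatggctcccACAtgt
SNORA75 (chr2:231455800-231455936, minus strand, within NCL): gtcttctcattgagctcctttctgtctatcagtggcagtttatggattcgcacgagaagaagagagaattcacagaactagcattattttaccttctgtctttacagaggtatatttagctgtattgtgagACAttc

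Box motifs were searched in all members on the RNA strand. ACANNN at the 3′ end occurred in 15 of the 20 SNORA members and in 75.2% of the 149 SNORA transcripts of the annotation. ANANNA, the letters of box H, occurred in 20 of 20 members and in 98.7% of those transcripts. Among the 33 SNORD members, 23 held TGATGA (box C) and 33 held CTGA (box D), compared with 77.4% and 98.3% of the 288 annotated SNORD transcripts. Motif content of the members was thus close to that of their class. TGATGA contains no CTGA, and both are short enough to occur elsewhere in a sequence.

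The members were short and mostly intronic. The median annotated length was 129.5 bases (136 for SNORA and 85 for SNORD members). An annotated host gene on the same strand spanned 57 of the 60, in 45 different hosts, of which 9 members lay in ribosomal protein genes. SNORD3A and SNORD3C (copies of the U3 RNA, which acts in ribosomal RNA processing) and SCARNA15 had no host. The transcript listed for SCARNA15 is annotated as AC105339.2, a processed transcript of 4325 bases, and its row stands for that longer transcript. Of the rows named SNORD19, MSTRG.12834 is annotated so, while the transcript of MSTRG.12835 is annotated as RF00569, a small nucleolar RNA of 76 bases. A host exon covered part of only 1 member, SCARNA2, in AL356488.2. Of the annotated RNAs with a host and a row of their own name, 2.6% of 78 had such cover. Without any row it was 41.1% of 333, and in rows of another or joined name 11 of 11. The low cover thus describes the RNAs that the table lists singly. Near-identical members share reads in ways that the counting could split. SNORD62A and SNORD62B have the same 86 bases. SNORA22 and SNORA22B (134 and 138 bases) share 128 aligned bases, 92.8% of the longer. SNORD3A (699 bases) and SNORD3C (581 bases) share 580, so that nearly all of SNORD3C is found in SNORD3A. SNORA7B and SNORD15B also have same-family members, SNORA7A and SNORD15A, inside joined rows.

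Levels were low and spread unevenly over the libraries. The median of the members' mean FPKM was 0.726, and 24 of 60 had a mean of at least 1 FPKM. SNORA65 had the highest mean (9.38 FPKM), followed by SCARNA22 (5.02), SNORA33 (4.85), SNORD17 (4.81), SNORD69 (4.62), SNORA66 (4.04), SNORD101 (3.11), SNORD19 (the row MSTRG.12835, 2.67), SNORA12 (2.35) and SNORA23 (2.01). For an RNA of 130 bases 1 fragment is worth 0.317 to 0.340 FPKM, so that most values rest on few fragments. At the annotated lengths, 48 of 60 members stayed under 10 fragments in every library, 12 reached 10 in at least 1 library and 0 did in all 6. A 0 in at least 1 library was listed for 22 members (36.7%), compared with 7.09% of all 16028 rows tested. The table does not give the lengths of the assembled loci used for the FPKM, so the numbers of fragments are estimates.

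**Figure D1:**
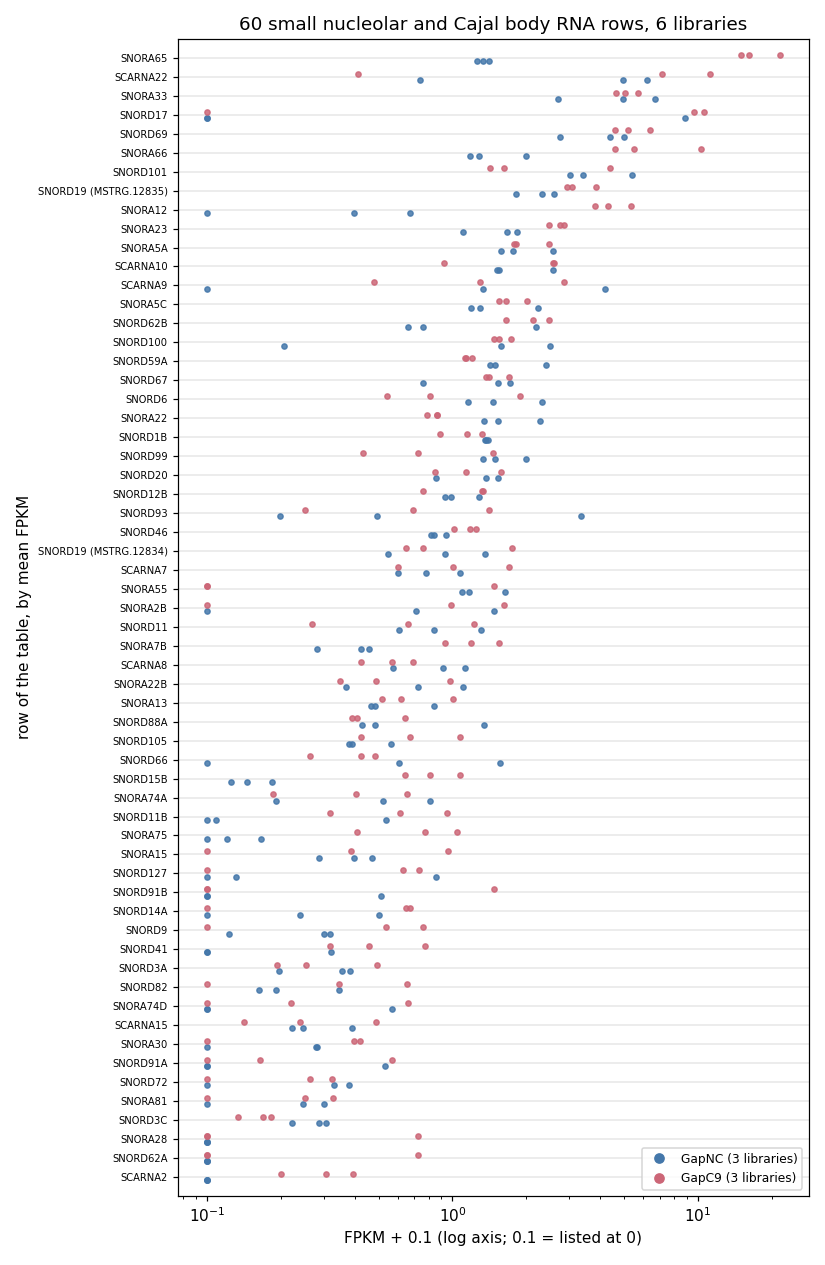
FPKM plus 0.1 (log axis) of the 60 small nucleolar and Cajal body RNA rows in each of the 3 GapNC and 3 GapC9 libraries, ordered by mean. Points at the left edge are rows listed at 0, and SNORA65 is the row whose 3 GapC9 points, from 15.0 to 21.5 FPKM, lie farthest right.

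To see how the members differed between GapC9 and GapNC, limma was fitted to log2(FPKM + 0.1) of all 16028 rows with a mean of at least 0.1 FPKM. On this scale changes of low rows are understated. A call needed an unadjusted p under 0.05 and a ratio of the group means that reached 2 or stayed at 0.5 or less, the study's thresholds, and the Benjamini-Hochberg adjusted p over all rows is given beside it. Of the 60 members, 8 were called higher in GapC9 (13.3%), compared with 2.10% of all rows, and 2 were called lower (3.33%), compared with 4.32%. At an adjusted p under 0.05, 7 members were higher (11.7%; all rows 1.89%). In the limma fit 0 members were lower at an adjusted p under 0.05 (all rows 5.10%), with 14 members at an unadjusted p under 0.05 in either direction (23.3%; all rows 25.9%). Under median scaling of the libraries, which moved the median of all rows from −0.08 to 0.07 (log2), 10 members were called higher and 0 lower, and all rows split into 582 higher and 383 lower, compared with 336 and 693 without it.

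The limit on mean FPKM shapes these counts. SNORD15B, SNORA75, SNORD41, SCARNA2, SNORA28 and SNORD62A passed it through GapC9 alone (10.0% of members; all rows 2.66%), and SNORD3C passed through GapNC alone (1.67%; all rows 3.43%). Of the 8 rows called higher, 4 passed in both groups. The counts over members are therefore a description. The 3 GapC9 libraries lay above the 3 GapNC libraries in 10 members (16.7%; all rows 12.6%) and below them in 4 (6.67%; all rows 21.6%). The fitted log2 fold change was above 0 in 40 of 60 members (66.7%), compared with 43.6% of all rows, and its median was 0.25, compared with −0.08 over all rows.

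By class, the median log2 fold change was 0.23 for SNORA, 0.27 for SNORD and 0.18 for SCARNA members. Of the 20 SNORA members 5 were called higher and 1 lower, beside 2.10% higher and 4.32% lower over all rows. Of the 33 SNORD members 2 were called higher and 1 lower, and of the 7 SCARNA members 1 was called higher. In classes this small 1 call makes a large share, so these counts are a description. Whether the classes differed was not tested. The summed level of the 60 rows was 59.3 ± 2.35 FPKM in GapNC and 94.8 ± 12.8 FPKM in GapC9 (SD, n = 3 each). Without SNORA65 the sums were 58.07 ± 2.35 and 77.29 ± 15.32 FPKM. Without all rows called higher they were 55.95 ± 2.47 and 63.07 ± 11.86 FPKM, and GapC9 1 (50.57 FPKM) lay below every GapNC library. For SNORA rows the sums were 18.4 ± 1.36 and 46.2 ± 3.72 FPKM. For SNORD rows they were 31.8 ± 3.77 and 37.3 ± 8.07 FPKM. In bulk RNA, more cells with an RNA and more of it per cell cannot be told apart.

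SNORA65, an H/ACA RNA, had the smallest adjusted p of the members. It was at 1.23, 1.16 and 1.31 FPKM in GapNC 1 to 3 and at 21.5, 15.0 and 16.1 FPKM in GapC9 1 to 3. All GapC9 libraries lay above all GapNC libraries, with a narrow spread in both groups. The group means were 1.24 ± 0.0769 and 17.5 ± 3.49 FPKM (SD, n = 3 each), a ratio of 14.2, and the fitted log2 fold change was 3.71 ± 0.16 (SE, limma adjusted p = 0.00165). At 130 bases these values stand for about 11.3 fragments in all of GapNC and 161.2 in all of GapC9. The call kept an adjusted p under 0.05 with each library left out (0.00325 to 0.0124). Its host RPL12, a protein of the large ribosomal subunit, was at 276 ± 59.1 FPKM in GapNC and 310 ± 39.5 FPKM in GapC9, a log2 fold change of 0.18 (adjusted p = 0.560).

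SNORA66, an H/ACA RNA within RPL5, was at 1.08, 1.19 and 1.89 FPKM in GapNC 1 to 3 and at 4.49, 5.40 and 10.2 FPKM in GapC9 1 to 3. The groups did not overlap, and GapC9 3 stood well above the other libraries. The log2 fold change was 2.14 ± 0.36 (SE, limma adjusted p = 0.0311), and with 1 library left out the adjusted p was 0.0633 to 0.106. RPL5, another large-subunit protein, went from 219 ± 4.81 to 180 ± 8.42 FPKM, a log2 difference of −0.28 (adjusted p = 0.0794).

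SNORA12, an H/ACA RNA within CWF19L1, was at 0.297, 0 and 0.570 FPKM in GapNC 1 to 3 and at 3.72, 5.27 and 4.23 FPKM in GapC9 1 to 3. Every GapC9 library lay above every GapNC library, and the highest GapNC value stood for about 2.03 fragments. The log2 fold change was 3.90 ± 0.69 (SE, limma adjusted p = 0.0336), with 3.0 fragments estimated in all of GapNC and 46.1 in all of GapC9. With 1 library left out the adjusted p was 0.0530 to 0.123. CWF19L1 was at 10.2 ± 0.595 and 8.92 ± 0.786 FPKM.

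The other rows with a higher call rested on fewer fragments. Of the 8, only SNORA65, SNORA66 and SNORA12 reached 10 estimated fragments in any library. SNORD15B, a C/D RNA within RPS3, was at 0.0848, 0.0254 and 0.0454 FPKM in GapNC 1 to 3 and at 0.707, 0.539 and 0.974 FPKM in GapC9 1 to 3. The groups lay far apart, but the row holds about 0.5 fragments in all of GapNC and 7.6 in all of GapC9. The log2 fold change was 2.45 ± 0.28 (SE, limma adjusted p = 0.0166, and 0.0287 to 0.0698 with 1 library left out).

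SNORA75, an H/ACA RNA within NCL, was at 0.0665, 0.0210 and 0 FPKM in GapNC 1 to 3 and at 0.940, 0.307 and 0.675 FPKM in GapC9 1 to 3. The log2 fold change was 2.45 ± 0.41 (SE, limma adjusted p = 0.0312, and 0.0507 to 0.108 with 1 library left out), on about 0.3 and 6.2 fragments. SNORA7B, an H/ACA RNA within the pseudogene RPL32P3, was at 0.324, 0.355 and 0.181 FPKM in GapNC 1 to 3 and at 0.836, 1.09 and 1.44 FPKM in GapC9 1 to 3. Neither RNA had overlapping groups. For SNORA7B the log2 fold change was 1.66 ± 0.28 (SE, limma adjusted p = 0.0312, and 0.0580 to 0.117 with 1 library left out), on about 2.8 and 11.1 fragments.

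SCARNA2, a Cajal body RNA of 420 bases, was listed at 0 in all 3 GapNC libraries and at 0.206, 0.294 and 0.10 FPKM in GapC9 1 to 3. The limma adjusted p was 0.0486 on 6.0 estimated fragments in all, and 0.0889 to 0.12 in the 4 fits without 1 library in which the row passed the filter. No fold is given against a group listed at 0. Annotated exons of AL356488.2, its host without a tested row, cover 100% of the SCARNA2 span, so host fragments could count for it. SNORD41, a C/D RNA within TNPO2, was at 0.221, 0 and 0 FPKM in GapNC 1 to 3 and at 0.357, 0.217 and 0.675 FPKM in GapC9 1 to 3. Here GapNC 1 lay above GapC9 2, so the groups overlapped. The call rested on the unadjusted p (0.0259), and the limma adjusted p was 0.136. A listed 0 can be a failed estimate. The joined row of RN7SL1, the RNA of the signal recognition particle, was also at 0 in GapC9 2 and at 102 to 137 FPKM in the other libraries.

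SNORA22 and SNORD3C were the rows called lower. SNORA22, an H/ACA RNA within the pseudogene CCT6P1, was at 1.44, 1.25 and 2.17 FPKM in GapNC 1 to 3 and at 0.769, 0.764 and 0.691 FPKM in GapC9 1 to 3. The groups did not overlap and the GapC9 values were close together. The log2 fold change was −1.0 ± 0.22 (SE, limma adjusted p = 0.0524, and 0.0791 to 0.154 with 1 library left out), on about 15.3 and 7.0 fragments. Its near-identical copy SNORA22B, within CCT6A, had overlapping groups and a log2 fold change of −0.28 (adjusted p = 0.787). SNORD3C was at 0.121, 0.185 and 0.206 FPKM in GapNC 1 to 3 and at 0.0332, 0.0824 and 0.0685 FPKM in GapC9 1 to 3. The log2 fold change was −0.74 (limma adjusted p = 0.149). SNORD3C passed the FPKM limit through GapNC alone, on about 1.6 to 2.9 fragments per GapNC library and 0.45 to 1.16 per GapC9 library. Its copy SNORD3A was at means of 0.211 and 0.213 FPKM.

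**Figure D2:**
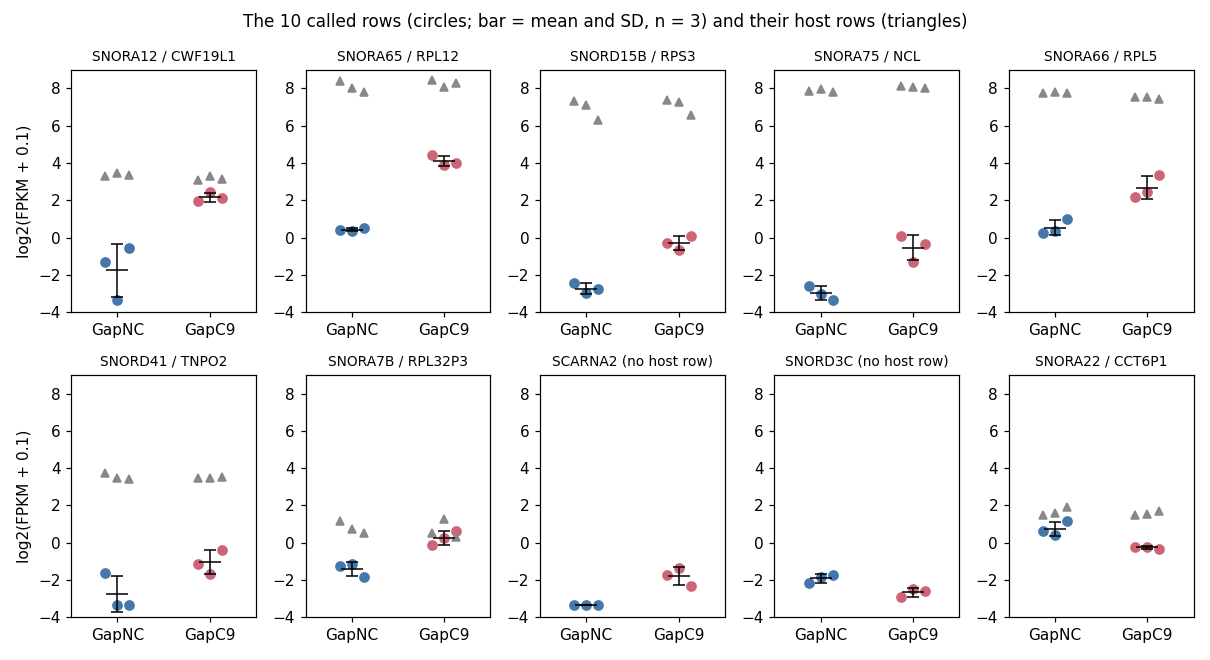
log2(FPKM + 0.1) of the 10 called rows in each library (circles, with the mean and SD of 3 libraries per group) and of the row of their host gene (grey triangles), ordered by log2 fold change. SNORA65 moved from 1.24 to 17.5 FPKM in the group means while the triangles of RPL12 stayed near 276 and 310 FPKM, and SCARNA2 and SNORD3C have no host row.

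Among the other highly listed rows no group difference passed either test. SNORA23, within IPO7, was at 1.73, 1.57 and 1.0 FPKM in GapNC 1 to 3 and at 2.37, 2.76 and 2.64 FPKM in GapC9 1 to 3. These groups did not overlap, but the log2 fold change of 0.84 had a limma adjusted p of 0.0742 and the ratio of means was 1.81. The row MSTRG.12835, named SNORD19, was at 1.72 to 2.51 FPKM in GapNC and at 2.83 to 3.76 FPKM in GapC9. Its log2 fold change was 0.56 (limma adjusted p = 0.133). SNORA33, SNORD69 and SNORD101 had overlapping groups and log2 fold changes of 0.20, 0.45 and −0.82 (adjusted p = 0.752, 0.338 and 0.333). SNORD46 and SNORD59A were the other members with separate groups and an unadjusted p under 0.05, with log2 fold changes of 0.40 and −0.58.

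Several rows switched between 0 and at least 1 FPKM within a group. SNORD17, a C/D RNA of 237 bases within SNX5, was at 8.79, 0 and 0 FPKM in GapNC 1 to 3 and at 0, 9.57 and 10.5 FPKM in GapC9 1 to 3. Where it was above 0 it held about 47.2 to 58.9 fragments, and the libraries at 0 lay in both groups. Its host row, SNX5;OVOL2, was at 11.4 ± 0.348 and 13.2 ± 0.266 FPKM. SNORA55, within PABPC4, was at 1.07, 1.53 and 0.993 FPKM in GapNC 1 to 3 and at 0, 0 and 1.38 FPKM in GapC9 1 to 3 (log2 fold change −2.38, adjusted p = 0.227). SNORA2B, SNORD66 and SNORD91B were also at 0 in at least 1 library and above 1 FPKM in another. The 2 groups overlapped in each of these 5 rows.

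The Cajal body RNAs varied widely within groups. SCARNA22, within NSD2, was at 6.12, 4.87 and 0.641 FPKM in GapNC 1 to 3 and at 7.05, 0.314 and 11.1 FPKM in GapC9 1 to 3. The low libraries, GapNC 3 and GapC9 2, lay in different groups, and the log2 fold change of 0.18 ± 1.45 (SE, limma adjusted p = 0.957) turned negative with GapNC 3, GapC9 1 or GapC9 3 left out. SCARNA9, within CEP295, was at 1.23, 4.10 and 9.97e-07 FPKM in GapNC 1 to 3 and at 0.379, 2.76 and 1.2 FPKM in GapC9 1 to 3. SCARNA10, SCARNA7, SCARNA8 and SCARNA15 had overlapping groups and log2 fold changes of 0.01, 0.35, −0.61 and −0.12.

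Since most members are cut from a host transcript, each was set beside the row of its host, which was found for 56 members in 44 rows. No host row was called in either direction (0 higher and 0 lower; all rows 2.10% and 4.32%). One host row passed an adjusted p under 0.05 in limma: NSD2, a histone methyltransferase, at 7.91 ± 1.02 FPKM in GapNC and 4.19 ± 0.302 FPKM in GapC9, a log2 fold change of −0.89 (adjusted p = 0.0260). The log2 fold changes of the host rows ran from −0.89 to 0.84 with a median of 0.10. All 44 lay within 1 of 0, as did 45 of the 56 members. The median of the mean FPKM was 23.4 for the host rows and 0.726 for the 60 members, so these spreads rest on unlike levels. Member and host had the same sign in 31 of the 56. Of the host rows 11 have joined names, which mix the host with a neighbor or a small nucleolar RNA.

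**Figure D3:**
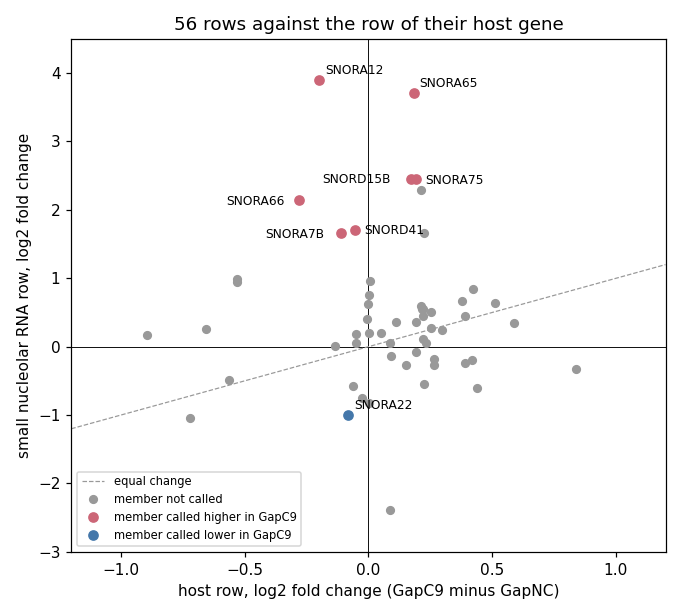
log2 fold change (GapC9 minus GapNC) of 56 small nucleolar RNA rows (vertical) against that of the row of their host gene (horizontal), with the line of equal change dashed. The 7 members called higher that have a host row lie between 1.66 and 3.90 on the vertical axis. Their hosts lie within −0.28 to 0.19. These members were picked by their call, and SNORD15B, SNORA75 and SNORD41 passed the FPKM limit through GapC9 alone. The contrast with the hosts is therefore a description.

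Beside the hosts of SNORA65 and SNORA66, the hosts of the called members had log2 fold changes of −0.20 for SNORA12 (CWF19L1), 0.17 for SNORD15B (RPS3;SNORD15A), 0.19 for SNORA75 (NCL), −0.11 for SNORA7B (RPL32P3), −0.05 for SNORD41 (FBXW9;TNPO2) and −0.08 for SNORA22 (CCT6P1). None of these host rows passed either test.

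Hosts with several members allowed RNAs of 1 precursor to be set side by side. NCL, which encodes nucleolin, holds SNORA75 and the C/D RNAs SNORD20 and SNORD82. SNORD20 was at 1.27, 0.755 and 1.43 FPKM in GapNC 1 to 3 and at 1.04, 1.47 and 0.748 FPKM in GapC9 1 to 3. Its groups overlapped, with a log2 fold change of −0.08 (adjusted p = 0.902). SNORD82 had a log2 fold change of 0.36 (adjusted p = 0.796), and the NCL row went from 235 ± 11.2 to 269 ± 8.81 FPKM (adjusted p = 0.177). SNORA75 passed the FPKM limit through GapC9 alone. Exact permutation tests of its log2 ratio to SNORD20 and to SNORD82 each gave p = 0.1. That is the smallest p possible with 3 against 3 libraries, so the tests cannot decide whether these RNAs differed.

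RPS12, a small-subunit protein gene, holds SNORA33, SNORD101 and SNORD100, which had log2 fold changes of 0.20, −0.82 and 0.76. SNORD100 was at 0.106 FPKM in GapNC 3 and at 1.37 to 2.39 FPKM in the other libraries. The RPS12 row itself was at 411 ± 63.1 and 410 ± 34.4 FPKM. GNL3, which encodes nucleostemin, holds SNORD69 and both rows named SNORD19, with log2 fold changes of 0.45, 0.56 and 0.11. Its joined row GNL3;SNORD19B had 0.22. No member of either host was called.

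**Figure D4:**
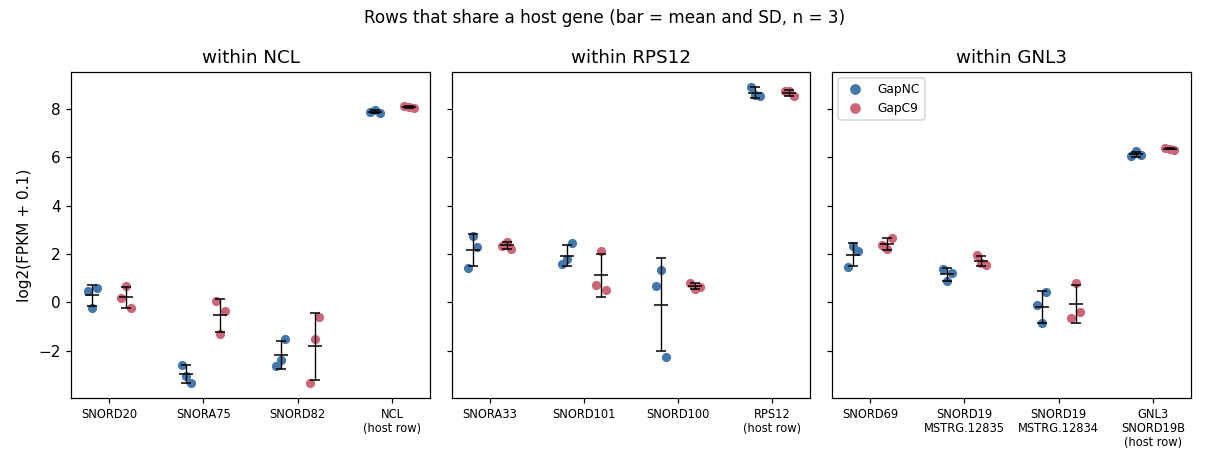
log2(FPKM + 0.1) of the members within NCL, RPS12 and GNL3 and of the host row in each library, with the mean and SD of 3 libraries per group. SNORA75 is the only one of these 9 members whose groups differ by a call, and SNORD100 has a low GapNC library at 0.106 FPKM.

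The core proteins bind these RNAs in finished particles. Of the 8, 0 were called (all rows 2.10% higher and 4.32% lower), 0 reached an adjusted p under 0.05 in limma and 1 had an unadjusted p under 0.05 (all rows 25.9%). At this number of genes, 0 calls are near the share over all rows. Among the C/D proteins, NOP58 (the joined row NOP58;SNORD70) had a log2 fold change of 0.22 (adjusted p = 0.178), NOP56 (NOP56;SNORA51) −0.01, the methyltransferase FBL (DYRK1B;FBL) −0.10 and SNU13 −0.53. Among the H/ACA proteins, the pseudouridine synthase DKC1 (DKC1;SNORA36A) had 0.02, GAR1 0.34, NOP10 −0.06 and NHP2 −0.96. NHP2 was at 27.4, 27.6 and 26.8 FPKM in GapNC 1 to 3 and at 26.7, 9.18 and 11.2 FPKM in GapC9 1 to 3 (adjusted p = 0.193).

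Of 14 assembly factors 0 were called (all rows 2.10% higher and 4.32% lower). An unadjusted p under 0.05 was found for 4 of them (all rows 25.9%). NOLC1, a nucleolar and Cajal body chaperone of these particles, was higher at an adjusted p of 0.0439 (125 to 169 FPKM, log2 fold change 0.43), and RUVBL1, an ATPase of the assembly complex, was lower at 0.0314 (22.8 to 15.1 FPKM, −0.59). Of 18 genes of processing and decay 8 had an unadjusted p under 0.05 in either direction (all rows 25.9%). Only 1 of the 18 was called lower, near the 4.32% of all rows. It was MPHOSPH6, a cofactor of the nuclear exosome, at 16.4, 21.9 and 26.0 FPKM in GapNC 1 to 3 and at 8.96, 8.58 and 9.68 FPKM in GapC9 1 to 3 (log2 fold change −1.21, limma adjusted p = 0.0267). TOE1, a deadenylase of small nuclear RNAs, was lower at an adjusted p of 0.0303 (−0.71). The other 16 did not reach it.

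Other small structured RNAs that lack a poly(A) tail were listed in 33 rows, of which 10 passed the filter and 1 was called lower (all rows 4.32%). That row, RNU6-485P, a U6 pseudogene, was at 0.319, 0.277 and 0.12 FPKM in GapNC 1 to 3 and at 0 in all GapC9 libraries (limma adjusted p = 0.0389). It passed the FPKM limit through GapNC alone, with values near that limit, so this call is a description. RN7SK, an RNA that restrains transcription elongation, was at 31.7, 46.9 and 61.3 FPKM in GapNC 1 to 3 and at 60.6, 86.8 and 115 FPKM in GapC9 1 to 3, in a row joined with 7SK. Its groups overlapped, with a log2 fold change of 0.91 (adjusted p = 0.148). RMRP, the RNA of RNase MRP, had a log2 fold change of 0.66 (adjusted p = 0.290). Of the 10 tested rows, 5 had a log2 fold change above 0 and 5 below, with a median of −0.42. Among those below were RNU1-2, RNU1-3 and RNU1-4, with −1.16, −1.08 and −0.89. The joined row of RN7SL1, listed at 0 in GapC9 2, had −3.24. The part that poly(A) selection had in these rows or in the higher SNORA rows was not tested.

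The 5 rows most like SNORA65 over the 6 libraries, among 10228 rows with a mean of at least 1 FPKM, were WNK4, BCLAF1, TNFRSF10D, AZI2 and CFAP53, with Pearson r from 0.996 to 0.998 on log2(FPKM + 0.1). Their log2 fold changes were 2.15, 0.41, 0.78, 0.35 and 1.18. The points are 6 libraries in 2 groups, and the correlations are a description of these libraries.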

How the data were processed

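Poly(A)-selected RNA of 3 GapNC and 3 GapC9 libraries was sequenced in paired ends. The authors assembled and quantified transcripts with StringTie and deposited FPKM values in 1 table of 27918 rows, in which neighboring genes can share a row; the values were used as deposited. The submitters' processing notes name HISAT2 2.0, StringTie 1.3.0 and Bowtie 0.12.2 and the mouse build mm8, while the rows list human transcripts. Whether strand was used in counting is not given in the sources used here. Columns with the authors' own comparisons were not used, and 0 value columns were left unused.

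In R 4.3.3, limma 3.58.1 (lmFit, eBayes with trend) was fitted to log2(FPKM + 0.1) of 16028 rows with a mean of at least 0.1 FPKM, all 6 libraries in 1 fit without a block. The design assumed FPKM and no count test was run. Annotation, hosts (the narrowest protein-coding or lincRNA gene spanning a member on its strand, or where there was none, for 7 members, an antisense, processed transcript or pseudogene gene, a class added to the rule later) and sequences came from GENCODE 29, matched by Ensembl transcript for 60 of 60 members; 1 host row was matched through a RefSeq synonym. Fragments were estimated as FPKM × annotated kilobases × fragments (M) of the library. The table holds no counts, so the counting error behind a value is unknown.

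Named were all called members, the 10 of highest mean, all SCARNA rows, rows at 0 in one library and at 1 FPKM or more in another, the 3 rows on each side of the limit, and listed genes past a threshold; SNORA22B, SNORD3A, SNORD46, SNORD59A, SNORD20, SNORD82 and SNORD100 were added after their values were seen. The members and lists were chosen with earlier results of these data known. The script was tested on simulated data. The sequences of the other members are not reported here.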

Additional observations from a re-analysis of the deposited data

How the results depend on the processing

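Calls of members at the fold and unadjusted p depended little on the pseudocount and the variance model, and more on the filter and on single libraries. Higher calls numbered 8 of 60, 6 to 10 with 1 library left out, and 3 of 24 with a filter at a mean of 1 FPKM, which tests fewer rows. Lower calls numbered 2, but 1 with that filter, 0 with median scaling, 1 with the GC correction, 0 with the fitted fold change and 0 to 5 with 1 library left out. Members higher at an adjusted p under 0.05 numbered 7, but 3 with the filter at 1 FPKM, 2 with no filter, which tests all 27918 rows, and 1 to 3 with 1 library left out. Over all rows, those higher and lower at an adjusted p numbered 303 and 817, but 146 and 346 with no filter, 1055 and 1233 with the GC correction, and 16 to 241 and 17 to 573 with 1 library left out. Members lower at an adjusted p numbered 0, but 1 (SNORA22) with a pseudocount of 0.01, 1 (SNORA22) with the GC correction, and 0 to 1 with 1 library left out. The median log2 fold change of the members was 0.25, but 0.11 with a pseudocount of 1, 0.39 with median scaling, 0.33 with quantile normalization and 0.15 to 0.38 with 1 library left out. With 1 library left out, SNORA33 ran from −0.17 (without GapNC 1, the only reversal) to 0.49, and SCARNA22 from −0.79 to 1.66, reversing without GapNC 3 (−0.79), GapC9 1 (−0.40) and GapC9 3 (−0.72). The cause was not tested. Of 164 values of named members under settings other than leaving out a library, 145 kept their direction and their side of the threshold, 17 lost the adjusted p under 0.05 and 2 gained it. SNORA65 kept it in 9 of 10 such settings (0.00113 to 0.0608) and in 6 of 6 with a library left out. The other 6 members with an adjusted p under 0.05 lost it in at least 4 of the leave-one-out fits, with adjusted p up to 0.123.

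With the replicate number as a block, 0 members were higher at an adjusted p, as were 0 of all rows in either direction, while 9 members were called higher and 2 lower at the fold and unadjusted p. The deviations of libraries with the same number correlated at 0.097, 0.040 and 0.024. GapNC 3 correlated best with GapC9 2 (0.058), and the other pairs of unlike number ran from −0.093 to −0.0045. Whether libraries of the same number shared a batch is not given in the labels and was not tested.

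Depth limits these values too, since most members hold under 10 estimated fragments.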
